A study of Homo sapiens with 11 samples.

Results

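The genes described here encode the Arp2/3 complex and a pair of its partners in actin turnover. ACTR2, ACTR3, ARPC1A, ARPC1B, ARPC2, ARPC3, ARPC4 and ARPC5 are subunits of the complex, and CAP1 and CORO1C act on the filaments and monomers around it. They are 10 of the 35303 genes in the count table, taken by symbol, and all 10 passed the filter on low counts that left 16117 genes. They were picked because of their read levels in these same libraries, compared between treatments within a replicate number, so their treatment differences are given as a description with no test.

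LX-2, an immortalised human hepatic stellate cell line with the genotype label WT and grown as 1 line in DMEM with serum, was profiled by RNA-seq. The 3 groups received PBS, HIV-1BaL virus (multiplicity of infection, MOI, 0.1), or that virus at the same MOI with lipoteichoic acid (LTA, a wall component of Gram-positive bacteria) at 1 ug/ml, each for 24 h. Each group had 3 libraries, and the labels give the replicate number as a batch, so batches 1, 2 and 3 each hold 1 library of every group. No group received LTA alone, the series text calls the control medium where the sample labels say PBS, and nothing in the labels says that the libraries came from separate cultures, so p-values measure the spread between these libraries only. ChIP-seq was also done on 1 PBS and 1 HIV-1 sample, whose titles say Lx2 while the cell line labels say Lx3 and Lx5.

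The Arp2/3 complex starts new actin filaments as branches on the side of existing ones. ACTR2 and ACTR3, which are related to actin itself, come together as the seed of the branch once a nucleation-promoting factor such as N-WASP or WAVE activates the complex. ARPC2 and ARPC4 form the scaffold that grips the mother filament, ARPC1A or ARPC1B, ARPC3 and ARPC5 complete it, and coronins such as CORO1C bind filaments and act on branch turnover. CAP1 helps cofilin take filaments apart and reloads the released actin monomers. Activated stellate cells are contractile, migratory and rich in actin filaments.

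The promoters of 4 of these genes are shown because ACTR2, ACTR3 and CORO1C were lower together in HIV-1+LTA replicates 2 and 3, while ARPC5 stood apart from ACTR2 between batches. Each stretch ends at the base before the first annotated transcript start and comes from the 250 bases upstream of the canonical start (GRCh37, the same build as hg19, with GENCODE annotation lifted to it), read 5′ to 3′ on the gene's own strand. ACTR2 is at chr2:65454715-65454921 on the plus strand, ACTR3 at chr2:114647416-114647639 on the plus strand, CORO1C at chr12:109125303-109125544 on the minus strand and ARPC5 at chr1:183604919-183605168 on the minus strand. Capitals mark matches to the GC box GGGCGG, the CCAAT box CCAAT and the ETS letters CCGGAAG on either strand.
ACTR2: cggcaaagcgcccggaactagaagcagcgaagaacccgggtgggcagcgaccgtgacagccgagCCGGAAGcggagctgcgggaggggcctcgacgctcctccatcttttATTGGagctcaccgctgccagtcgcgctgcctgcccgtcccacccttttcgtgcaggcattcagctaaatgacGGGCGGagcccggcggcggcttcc
ACTR3: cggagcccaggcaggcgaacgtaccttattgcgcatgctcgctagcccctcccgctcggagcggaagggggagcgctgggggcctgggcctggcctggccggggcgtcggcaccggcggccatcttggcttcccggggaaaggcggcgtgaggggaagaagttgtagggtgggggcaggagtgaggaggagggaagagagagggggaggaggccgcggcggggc
CORO1C: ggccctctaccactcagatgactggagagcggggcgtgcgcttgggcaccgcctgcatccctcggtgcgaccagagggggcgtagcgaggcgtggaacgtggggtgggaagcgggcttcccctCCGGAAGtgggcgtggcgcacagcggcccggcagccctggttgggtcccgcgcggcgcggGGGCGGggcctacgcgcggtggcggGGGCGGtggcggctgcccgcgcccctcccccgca
ARPC5: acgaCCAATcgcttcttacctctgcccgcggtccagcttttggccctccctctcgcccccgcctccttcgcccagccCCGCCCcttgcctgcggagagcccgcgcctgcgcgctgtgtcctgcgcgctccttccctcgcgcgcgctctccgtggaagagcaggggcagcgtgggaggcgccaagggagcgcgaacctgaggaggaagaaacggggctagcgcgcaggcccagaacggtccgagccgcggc
The ACTR3 stretch has no capitals because its GC box, starting 25 bases before the canonical start, lies wholly beyond the part shown. A second ETS match of ACTR2, starting 48 bases before the canonical start, is left unmarked because it runs past the end of the part shown.

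Over the full 250 bases, 9 of the 10 promoters held a GC box, against 59.15% of 19866 protein-coding promoters of the same length. The stretches of ARPC1B, ARPC4 and CAP1 lie wholly inside the annotated gene, after the start of another transcript, and are counted here. The ETS letters were in 6 of 10 (ACTR2, ARPC1A, ARPC3, ARPC4, CAP1 and CORO1C), against 11.92%. A CCAAT box was in 4 of 10 (ACTR2, ARPC1A, ARPC1B and ARPC5), against 34.29%. Of the promoters printed, those of ACTR2 and CORO1C held the ETS letters. The CArG box of serum response factor was in 0 of 10 (1.123% of all promoters), the AP-1 letters TGANTCA in 0 of 10 (4.696%) and the TEAD letters GGAATG in 1 of 10 (ARPC4, 9.821%). All motifs were searched on both strands, and the ones named do not contain each other. The shares over all promoters were not matched for expression or GC content, so enrichment of a motif in the 10 genes was not tested. In the HIV-1 peak list of 166 ChIP-seq peaks, 0 lay within 100000 bases of any of the 10 genes, and the nearest was 221699 bases from ARPC1B. The share of all genes with a peak that near was not computed, so nothing particular to the 10 can be read from the 0.

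The libraries held 50.6 to 90.6 M counts (M, 1e+06), and the 10 genes together took 0.362% to 0.570% of them. Of 10 stellate cell markers, 8 were above 1 CPM (counts per M counts, scaled by TMM) in every library, while DES and LRAT, which mark desmin-positive and vitamin A-storing stellate cells, stayed at or below 0.259 CPM. Markers of other liver cells were low: 6 hepatocyte genes summed to 0.440 to 2.01 CPM per library, with ALB at 0.160 CPM or less, and 6 endothelial genes summed to 1.12 to 2.19 CPM. The 7 macrophage genes summed to 4.08 to 10.96 CPM, most of it CD14, with C1QA at 0 in all 9 libraries, and 6 lymphocyte genes summed to 0.0206 to 1.099 CPM. In bulk libraries fewer cells with a transcript and less of it per cell cannot be told apart.

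The subunits of the complex were not present at equal transcript levels. Per kilobase of the canonical transcript, in the PBS libraries, ACTR2 stood at 366 ± 183 CPM per kb (SD, n = 3), ARPC3 at 354 ± 45.2, CAP1 at 301 ± 91.1 and ARPC2 at 291 ± 81.3. CORO1C followed at 200.1 ± 18.9 CPM per kb, then ACTR3 at 106 ± 43.1 and ARPC4 at 82.7 ± 7.64. The lowest were ARPC5 at 38.3 ± 6.24, ARPC1A at 26.2 ± 1.962 and ARPC1B at 17.3 ± 0.539 CPM per kb. Neighbours in this order down to CORO1C, and ACTR3 with ARPC4, did not differ by more than the sum of their SDs, and the other neighbours did. These SDs include the differences between batches, and the top of the order depended on the batch. ACTR2 stood at 246, 276 and 577 CPM per kb in PBS replicates 1, 2 and 3, and ARPC3 at 395, 362 and 306. ARPC1A and ARPC1B, the alternative forms of the propeller-shaped subunit that contacts nucleation-promoting factors, were thus the least abundant members by length. Their neighbouring genes are also spanned by an unnamed read-through gene model on the same strand, which is not a row of the count table. PDAP1, with up to 21190 counts in a library, overlaps ARPC1B (1333 to 2486 counts) on the opposite strand. TADA3, with up to 7361 counts, overlaps ARPC4 (5101 to 12268 counts) in the same way. ARPC4-TTLL3, a read-through with 22 to 95 counts, shares the ARPC4 locus. The strand setting of the counting is not given in the sources used here, so reads of these overlapping genes may not be separated. The per-kilobase values rest on the canonical transcript, which is longest for ARPC5 (7266 bases) and ACTR3 (6589 bases).

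HIV-1+LTA against PBS asks what the virus and LTA together did. ACTR2, ACTR3, ARPC2, CAP1 and CORO1C were lower with HIV-1+LTA in batches 2 and 3 and close to PBS in batch 1, while ARPC1B was higher in batches 2 and 3. The median log2 fold change of the 10 genes in the edgeR fit over all 9 libraries was -0.13, against 0.00164 over all 16117 genes. Below 0 were 7 of the 10, and 49.6% of all genes. In the same fit 0% of genes passed an adjusted p of 0.05, and 2709 genes had an unadjusted p below 0.05. In the authors' deposited table, which a DESeq2 fit with batch and group reproduced for this comparison, 4 of the 10 (ACTR2, ACTR3, CAP1 and CORO1C) are past an adjusted p of 0.05, all lower, where 0.964% of the genes with an adjusted p are called lower. The members were chosen on these values, so that count is no evidence of its own. Without PBS replicate 1 or HIV-1+LTA replicate 1 the DESeq2 count was 5, ARPC2 being added, where 396 and 1493 of all genes were called lower. Without any 1 of the other 7 libraries the count of the 10 was 0, where 0 to 42 of all genes were called lower. The fit of all 9 libraries called 118 genes lower.

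**Figure D1:**
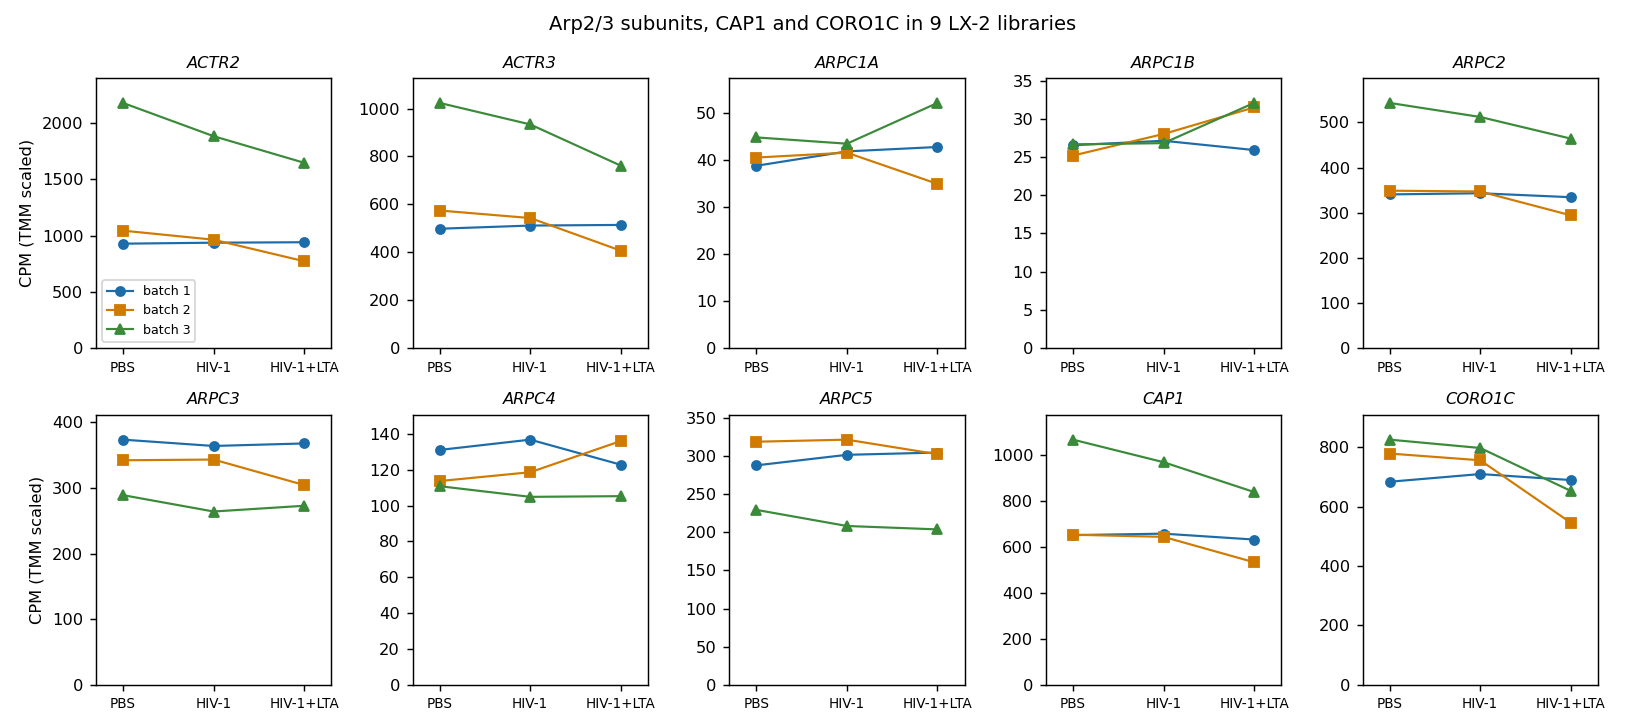
Level of each of the 10 genes (vertical axis, CPM scaled by TMM, starting at 0) in the PBS, HIV-1 and HIV-1+LTA library of each batch, with 1 point per library and lines joining the libraries of a batch. The batch 3 libraries stand above the others for ACTR2 (1649 to 2181 against 773 to 1045 CPM) and below them for ARPC5 (204 to 229 against 288 to 321 CPM).

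ACTR2, an actin-related subunit, had 929, 1045 and 2181 CPM with PBS in batches 1, 2 and 3, 938, 964 and 1885 CPM with HIV-1, and 942, 773 and 1649 CPM with HIV-1+LTA. Its partner ACTR3 had 498, 574 and 1023 CPM with PBS, 512, 543 and 934 CPM with HIV-1, and 514, 407 and 762 CPM with HIV-1+LTA. In batches 2 and 3 both genes were lowest in the HIV-1+LTA library, with HIV-1 in between, and in batch 1 the 3 libraries lay together. Pooled over batches the groups overlapped, and they overlapped in batches 1 and 2 taken without batch 3 as well. Subtracting PBS from HIV-1+LTA in each of batches 1, 2 and 3 gave differences in log2 CPM of 0.02, -0.43 and -0.40 for ACTR2, and 0.05, -0.50 and -0.43 for ACTR3. The fitted log2 fold change was -0.27 (SE 0.0804) for ACTR2, a change of -17.2%, and -0.29 (SE 0.0881) for ACTR3, a change of -18.2%. Without batch 1 the fold changes were -0.41 and -0.45, and without batch 2 they were -0.19 and -0.18.

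The scaffold subunits differed from each other. ARPC2 had 341, 349 and 543 CPM with PBS in batches 1, 2 and 3, 343, 347 and 512 CPM with HIV-1, and 334, 294 and 464 CPM with HIV-1+LTA. Its HIV-1+LTA library was the lowest of each batch, by 0.03, 0.25 and 0.23 below PBS in log2 CPM, and the fitted log2 fold change was -0.17 (SE 0.0561). ARPC4 had 131, 114 and 111 CPM with PBS, 137, 119 and 105 CPM with HIV-1, and 123, 136 and 105 CPM with HIV-1+LTA. It was lower than PBS in batches 1 and 3 (-0.09 and -0.07) and higher in batch 2 (0.26), and its fitted log2 fold change was 0.03 (SE 0.0702). The direction of ARPC4 was not shared by the 3 batches.

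ARPC3 and ARPC5, the small subunits at the edge of the complex, moved little. ARPC3 ranged from 264 to 374 CPM over the 9 libraries and ARPC5 from 204 to 321 CPM. Their log2 fold changes were -0.09 (SE 0.0545) and -0.05 (SE 0.0563). ARPC3 was lower in all 3 batches, by at most 0.17, and ARPC5 was higher in batch 1 (0.08) and lower in batches 2 and 3 (-0.08 and -0.17).

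ARPC1B had 26.5, 25.2 and 26.7 CPM with PBS, 27.1, 28.02 and 26.8 CPM with HIV-1, and 25.9, 31.5 and 32.1 CPM with HIV-1+LTA. The HIV-1+LTA libraries of batches 2 and 3 were the 2 highest of the 9. The within-batch differences from PBS were -0.03, 0.32 and 0.27, with a fitted log2 fold change of 0.19 (SE 0.0747), the opposite sign to ACTR2 and ACTR3. ARPC1A, its alternative in the complex, had 38.8, 40.5 and 44.8 CPM with PBS, 41.8, 41.6 and 43.5 CPM with HIV-1, and 42.8, 34.9 and 52.1 CPM with HIV-1+LTA. It was higher than PBS in batches 1 and 3 (0.14 and 0.22) and lower in batch 2 (-0.21). The ratio of ARPC1B to ARPC1A counts was 0.606, 0.901 and 0.615 in HIV-1+LTA replicates 1, 2 and 3, against 0.684, 0.622 and 0.595 with PBS, and replicate 2 was the highest of the 9 libraries.

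CAP1 had 651, 653 and 1066 CPM with PBS, 657, 643 and 968 CPM with HIV-1, and 632, 533 and 838 CPM with HIV-1+LTA. It was lower with HIV-1+LTA than with PBS in all 3 batches, by 0.04, 0.29 and 0.35 in log2 CPM, and its log2 fold change was -0.23 (SE 0.0632), a change of -14.6%. CORO1C had 684, 779 and 826 CPM with PBS, 710, 756 and 798 CPM with HIV-1, and 690, 546 and 653 CPM with HIV-1+LTA. CORO1C was the only one of the 4 genes called in the authors' deposited table whose HIV-1+LTA library of batch 3 lay below every PBS library. Its within-batch differences were 0.01, -0.51 and -0.34, with a log2 fold change of -0.28 (SE 0.0834), a change of -17.4%. Without batch 1 it was -0.42 and without batch 2 it was -0.16.

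**Figure D2:**
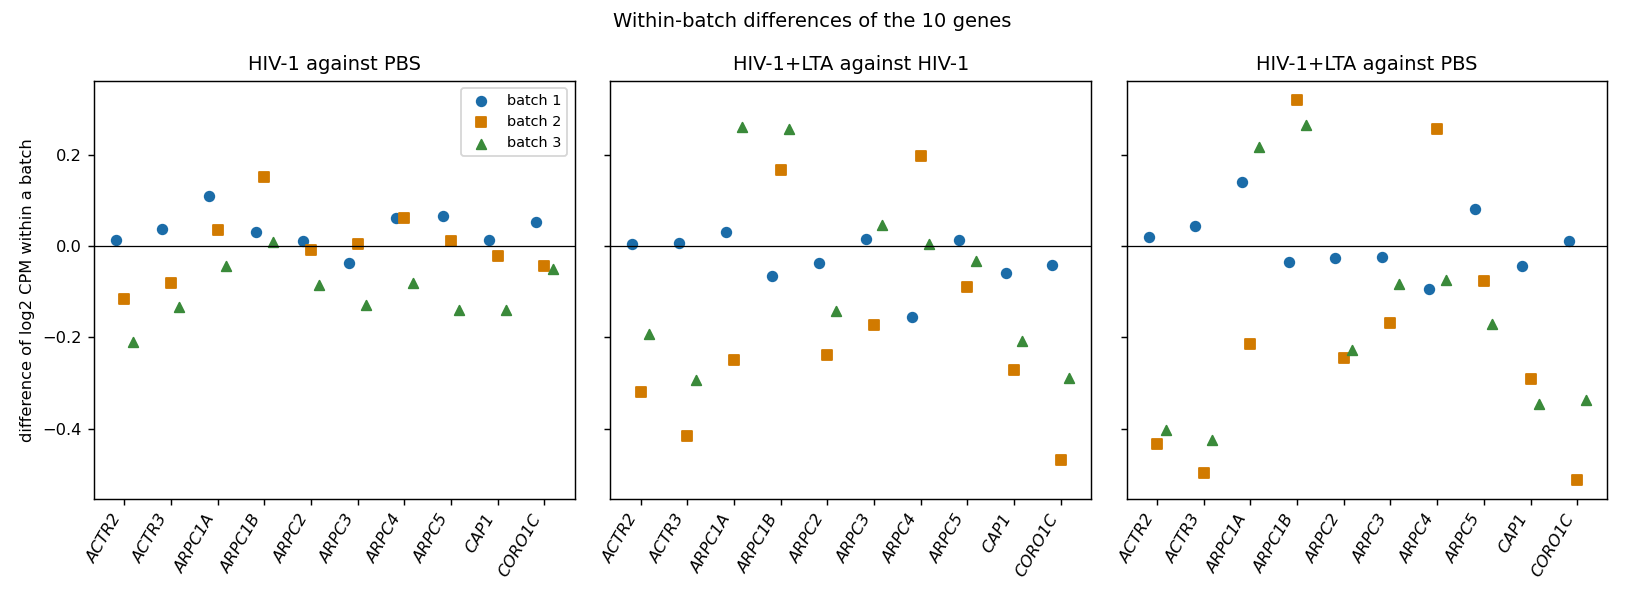
Difference of log2 CPM between a pair of libraries of the same batch (vertical axis) for the 10 genes (horizontal axis), 1 panel per comparison and 1 point per batch. Batch 1 lies between -0.09 and 0.14 for HIV-1+LTA against PBS, while in batch 2 CORO1C and ACTR3 reach -0.51 and -0.50.

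The batches can be read against all genes. In HIV-1+LTA against PBS the median within-batch difference of the 10 genes was -0.00526, -0.23 and -0.20 in batches 1, 2 and 3, and over all genes it was 0.00441, 0.00427 and -0.01. A typical gene also differed less in batch 1: the median absolute difference over all genes was 0.0718 there, 0.169 in batch 2 and 0.181 in batch 3. In batches 2 and 3, 19.7% and 20.9% of all genes were lower by 0.2 or more, beside differences of -0.25 and -0.23 for ARPC2.

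LTA added to the virus is addressed by HIV-1+LTA against HIV-1. The HIV-1+LTA libraries are the same as those set against PBS. CORO1C (-0.26, SE 0.0833), ACTR3 (-0.23, SE 0.088), CAP1 (-0.18, SE 0.0632), ACTR2 (-0.16, SE 0.0804) and ARPC2 (-0.14, SE 0.0561) had the lowest log2 fold changes of the 10. ARPC1B was at 0.12 (SE 0.075), and the median of the 10 was -0.09 against -0.00382 over all genes. Within batches 1, 2 and 3 the difference was -0.04, -0.47 and -0.29 for CORO1C, and 0.00736, -0.42 and -0.29 for ACTR3. In edgeR 0% of genes passed and 2486 had an unadjusted p below 0.05. In DESeq2 with the replicate block 0 of the 10 genes were called, where 0.538% of all genes were called lower and 1.40% higher.

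HIV-1 against PBS compares virus alone with the control. The 10 log2 fold changes ran from -0.11 (ACTR2, SE 0.0803) to 0.06 (ARPC1B, SE 0.0749), with a median of -0.02 against -0.00151 over all genes. In batch 1, 9 of the 10 were above 0, and in batch 3, 9 of the 10 were below 0, with medians of 0.03 and -0.11. Of all genes 49.2% were below 0 in batch 1 and 52.8% in batch 3. The median absolute difference over all genes was 0.0742 in batch 1 and 0.122 in batch 3. In batch 3 ACTR2 was 0.21, ARPC5 and CAP1 0.14, and ACTR3 and ARPC3 0.13 lower with HIV-1 than with PBS in log2 CPM. In edgeR 0% of all genes passed and 678 had an unadjusted p below 0.05. DESeq2 with the replicate block called 0.0150% of genes, and 0 of the 10.

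Across libraries most of the 10 genes moved together, while ARPC1A, ARPC4 and ARPC1B stood apart without forming a set of their own. With batch means removed, over the 9 libraries, ARPC2 correlated with the mean of the other 9 genes at r = 0.968, ACTR2 and CAP1 at 0.942, ACTR3 at 0.930, CORO1C at 0.912, ARPC3 at 0.848 and ARPC5 at 0.812. ARPC1A was at 0.116, ARPC4 at -0.54 and ARPC1B at -0.855. Among these, ARPC1A correlated with ARPC1B at 0.0589 and with ARPC4 at -0.617, and ARPC4 with ARPC1B at 0.561. The closest pairs were ARPC2 with CAP1 (r = 0.991) and ACTR3 with CORO1C (r = 0.984). The points share their libraries and the scaling of each library, and the members were chosen for this pattern, so the values are a description. The mean of the 10 genes, in batch-centred log2 CPM, was highest in PBS replicate 3 (0.0861) and lowest in HIV-1+LTA replicates 2 (-0.124) and 3 (-0.0723).

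The genes most like the members in that measure, among 9309 genes with a mean of 10 CPM or more, were ANXA5 (r = 0.996, an annexin that binds membrane phospholipids), RAP1B (0.995, a small GTPase), PPP4R1, GOLT1B, MBLAC2, THAP12, DCUN1D5, ZW10, SET and SHCBP1, the last at 0.988. In batches 2 and 3 ANXA5 was 0.17 and 0.16 lower with HIV-1+LTA than with PBS in log2 CPM, and RAP1B was 0.29 and 0.22 lower. Among the most opposed genes were LRRC20 (r = -0.999), C2CD2, PPM1M and MMP14, a membrane-bound matrix protease (-0.984). MMP14 was 0.29 and 0.29 higher with HIV-1+LTA in batches 2 and 3. The pattern was widespread, with 795 genes (8.54%) at r of 0.9 or more and 216 at -0.9 or less, and by Spearman's coefficient 4 of the 10 nearest genes stayed among the nearest 10.

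Levels between batches were not used to choose the genes, and there some subunits were higher and others lower in batch 3. Batch 3 was tested against the mean of batches 1 and 2 in the same edgeR fit, with Benjamini-Hochberg adjustment over all genes. That batch 3 stands apart was known from earlier results. Of the 10 genes 5 were higher in batch 3, 3 were lower and 2 did not pass, and 71.2% of all genes passed in this comparison, so 8 of 10 is near the background. ACTR2 was 2.04-fold higher (log2 fold change 1.03, SE 0.0675, adjusted p 5.91e-08), at 1649 to 2181 CPM against 773 to 1045 CPM. ACTR3 was 1.78-fold higher (0.83, SE 0.0741, adjusted p 8.72e-07), CAP1 1.52-fold higher (0.60, SE 0.0536, adjusted p 8.1e-07) and ARPC2 1.51-fold higher (0.60, SE 0.0476, adjusted p 3.16e-07). In contrast ARPC5 was lower (-0.52, SE 0.0499, adjusted p 1.67e-06), at 204 to 229 CPM against 288 to 321 CPM, and so were ARPC3 (-0.34, adjusted p 4.42e-05) and ARPC4 (-0.24, adjusted p 0.00397). For 8 of the 10 genes (these 7 and ARPC1A) no batch 3 library overlapped the other 6, as for 60.8% of all genes. Over all genes 5669 were called higher and 5809 lower, the median absolute log2 fold change was 0.44, and 18.9% of genes differed at least as much as ACTR2.

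ARPC1A was higher in batch 3 (0.22, SE 0.0731, adjusted p 0.0162), and with library totals in place of TMM, or without HIV-1+LTA replicate 3, it was 0.06 and 0.12 and did not pass. CORO1C was at 0.13 (adjusted p 0.135) and ARPC1B at 0.06 (adjusted p 0.459), and with library totals they were at -0.03 and -0.10. That scaling moved the median of all genes in this comparison from -0.01 to -0.17 and the share of calls that were higher from 49.4% to 36.7%. Without HIV-1+LTA replicate 1, CORO1C passed at 0.19 (adjusted p 0.00152). ACTR2, ACTR3, CAP1, ARPC2, ARPC3, ARPC4 and ARPC5 kept their direction and their call under all 14 alternatives run for this comparison.

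Ratios within a library do not depend on scaling. There were 2.56 to 3.28 ACTR2 counts per ARPC5 count in the 6 libraries of batches 1 and 2, and 8.09 to 9.51 in batch 3. ACTR3 to ARPC3 went from 1.33 to 1.68 in batches 1 and 2 to between 2.79 and 3.54 in batch 3, and ARPC2 to ARPC3 from 0.909 to 1.02 to between 1.70 and 1.94. ACTR2 to ACTR3, the paired actin-related subunits, stayed closer, at 1.78 to 1.90 and 2.02 to 2.16. The batches did not overlap in these 4 ratios, while ARPC1B to ARPC1A did overlap, at 0.606 to 0.901 and 0.595 to 0.617. Ratios of other gene pairs were not computed, so nothing particular to the complex can be read from them. Batch 3 is 1 batch, so this test sets its 3 libraries against the other 6 and says nothing of further batches. Of the 10 stellate cell markers, 3 were higher in batch 3 without overlap, 1 was lower and 6 overlapped. VIM, the intermediate filament protein vimentin, was at 2451 to 3128 CPM against 539 to 793 CPM, the collagen cross-linker LOX at 948 to 1236 CPM against 122 to 193 CPM, and COL1A2 at 271 to 323 CPM against 33.2 to 41.1 CPM. TIMP1, an inhibitor of matrix proteases, was the lower one, at 99.8 to 157 CPM against 201 to 259 CPM, and COL1A1 overlapped, at 794 to 1000 CPM against 875 to 1426 CPM. What sets batch 3 apart is not in the labels, and the part of these genes in the result was not tested.

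**Figure D3:**
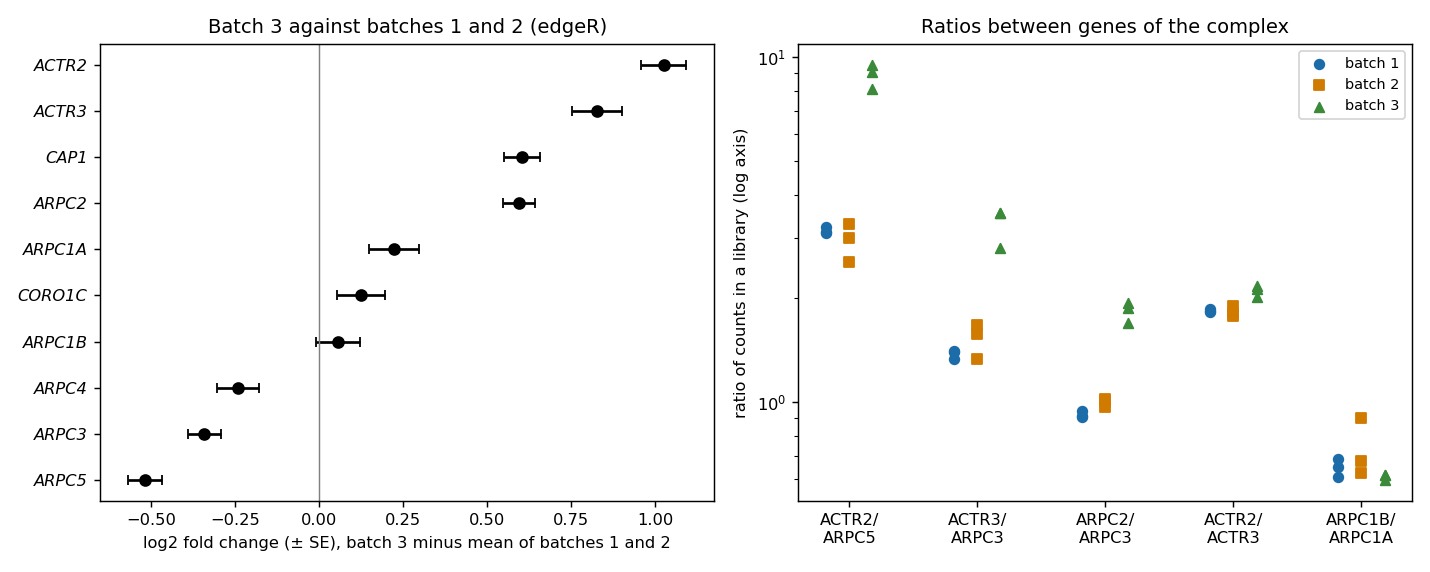
Left, log2 fold change of each gene between batch 3 and the mean of batches 1 and 2 (horizontal axis, points with bars of 1 SE). Right, ratio of the counts of 2 genes in each library (log axis), 1 point per library: ACTR2 to ARPC5 lies at 2.56 to 3.28 in batches 1 and 2 and at 8.09 to 9.51 in batch 3.

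The base composition of the transcripts moved with the treatment differences. Over 13869 genes the log2 fold change of HIV-1+LTA against PBS correlated with transcript GC content with a Spearman coefficient of 0.353, and genes at or below 40.7% GC had a median of -0.05 against 0.13 for genes at or above 58.5%. Within batches 1, 2 and 3 the coefficient was 0.113, 0.211 and 0.376. For HIV-1 against PBS it was 0.373 and was positive in each batch (0.243, 0.168 and 0.343). For HIV-1+LTA against HIV-1 it was 0.107, with -0.14, 0.0949 and 0.169 in batches 1, 2 and 3, so its sign was not shared. The 10 genes had the same sign, with a coefficient of 0.746 over the 10: ACTR3 and ACTR2 are the poorest in GC (35.0% and 37.5%) and lower, and ARPC1B is the richest (57.8%) and higher. ARPC5 (39.6% GC) was at -0.05 and ARPC3 (42.3%) at -0.09. With the GC trend over all genes removed, the log2 fold changes of HIV-1+LTA against PBS were -0.22 for ACTR2, -0.23 for ACTR3, -0.25 for CORO1C, -0.20 for CAP1, -0.14 for ARPC2 and 0.12 for ARPC1B. The part of GC content in the differences was not tested beyond this.

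**Figure D4:**
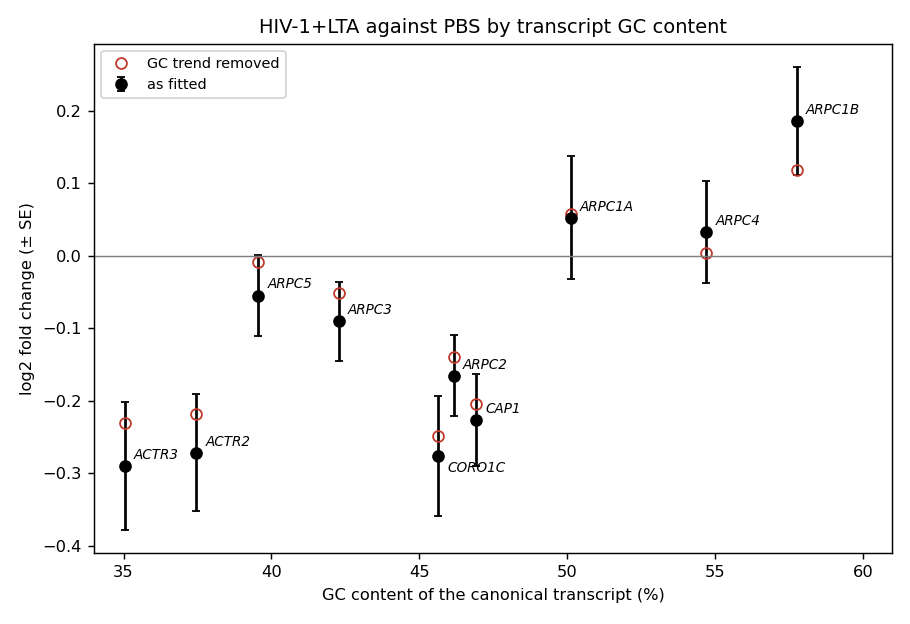
Log2 fold change of HIV-1+LTA against PBS (vertical axis) against the GC content of the canonical transcript in percent (horizontal axis) for the 10 genes. Filled points with bars of 1 SE are the edgeR fit, and open points have the GC trend over all genes removed: ACTR3 goes from -0.29 to -0.23 and ARPC1B from 0.19 to 0.12.

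The rest of the branched-actin pathway was read from 9 lists of 105 genes, of which 96 were tested in edgeR. In edgeR 0 of the 96 passed in any treatment comparison, and DESeq2 with the replicate block called 3 genes. That was 2 of 91 genes in each HIV-1+LTA comparison, where 1.94% (against HIV-1) and 1.93% (against PBS) of all genes were called, so the pathway's share is near the background. GSN, the filament-severing and capping protein gelsolin, had 59.3, 67.5 and 39.0 CPM with PBS in batches 1, 2 and 3, 61.5, 57.8 and 41.1 CPM with HIV-1, and 64.3, 90.0 and 71.2 CPM with HIV-1+LTA. GSN was called higher in DESeq2 against HIV-1 (log2 fold change 0.51, SE 0.113, adjusted p 0.00252) and against PBS (0.46, SE 0.112, adjusted p 0.0137), where edgeR gave adjusted p of 0.171 and 0.205. GMFG, a debranching protein that binds the Arp2/3 complex, had 12.6, 8.94 and 3.53 CPM with HIV-1 and 12.8, 14.3 and 7.26 CPM with HIV-1+LTA, and it was called higher in DESeq2 against HIV-1 (0.57, SE 0.155, adjusted p 0.0204, against 0.190 in edgeR). WDR1, which speeds filament disassembly by cofilin, was called lower in DESeq2 against PBS (-0.24, SE 0.0731, adjusted p 0.0485, against 0.206 in edgeR), from 826, 982 and 819 to 827, 729 and 676 CPM. All 3 differed in batches 2 and 3, and less in batch 1. There the differences from PBS were 0.12 for GSN, -0.00938 for GMFG and 0.00115 for WDR1, beside a median absolute difference of 0.0718 over all genes.

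**Figure D5:**
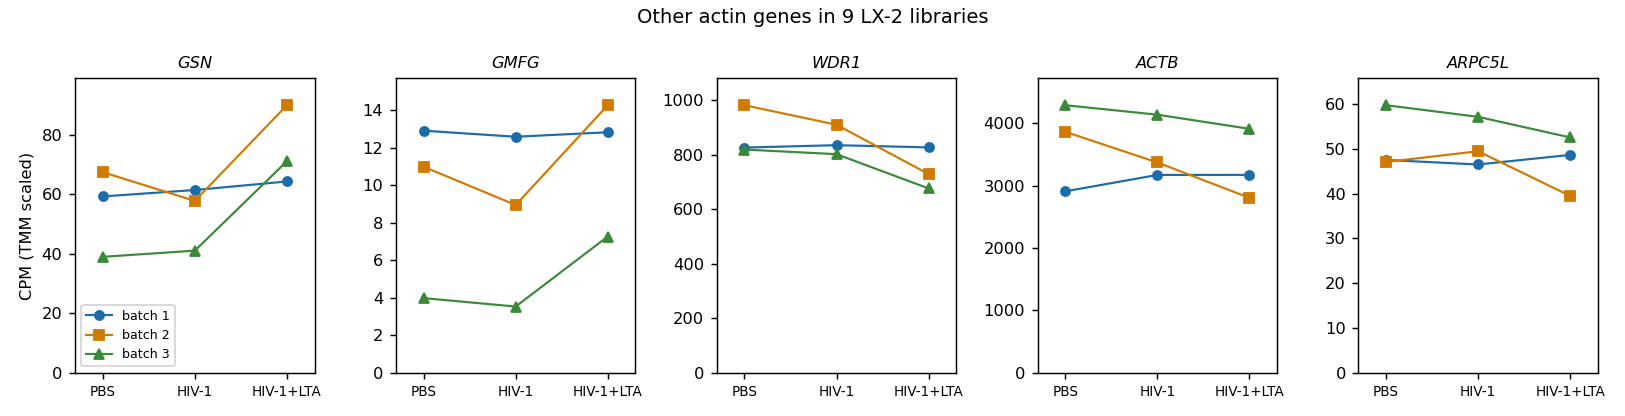
Level of GSN, GMFG, WDR1, ACTB and ARPC5L (vertical axis, CPM scaled by TMM, starting at 0) in the library of each group and batch. In batches 2 and 3 GSN is highest with HIV-1+LTA (90.0 and 71.2 CPM) and WDR1 lowest (729 and 676 CPM).

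By list, the medians of HIV-1+LTA against PBS lay on either side of 0. The 7 tested actins and thymosins had a median log2 fold change of -0.18, with 6 below 0. ACTB and ACTG1, the cytoplasmic actins, were 0.46 and 0.51 lower in batch 2, 0.13 and 0.20 lower in batch 3, and 0.13 and 0.15 higher in batch 1, in log2 CPM. The 10 Arp2/3 inhibitors and other coronins had a median of 0.19, with 8 above 0. Nucleation-promoting factors (18 tested, median -0.00539), formins and other linear nucleators (14 tested, 0.00136) and disassembly and recycling factors (16 tested, -0.00751) were centred near 0. CTTN, cortactin, which stabilises branches, differed from PBS by 0.03, -0.06 and 0.01 in the 3 batches, and WASF2 by -0.00681, 0.04 and 0.02. The WAVE regulatory complex (7 tested) had a median of -0.03, with NCKAP1 0.13 and 0.15 lower in batches 2 and 3. Capping and severing proteins (13 tested) had a median of -0.03.

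Paralogues of the subunits were also read. ARPC5L, the alternative to ARPC5, was at 39.5 to 59.7 CPM and differed from PBS with HIV-1+LTA by 0.03, -0.25 and -0.19 in batches 1, 2 and 3. It was higher in batch 3 than in batches 1 and 2 (0.28, SE 0.0597, edgeR adjusted p 0.0011), where ARPC5 was lower, and its counts were 13.1% to 27.4% of those of ARPC5. ACTR3B, the paralogue of ACTR3, was at 5.62 to 6.96 CPM, with 0.671% to 1.38% of the counts of ACTR3, and CAP2 had 11.5% to 15.9% of the counts of CAP1. Processed pseudogenes of CAP1 and ACTR3 held under 0.0856% of the counts of their parent gene. These shares are of counts with no correction for transcript length, which is 7266 bases for ARPC5. Paralogues were not compared per kilobase. Between batches 45 of the 96 pathway genes were higher in batch 3 and 31 lower, where 71.2% of all genes passed.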

How the data were processed

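The submitters' processing notes name fastp, STAR, SAMtools, HTSeq, Bowtie2, bedtools and deepTools and the build hg19. Versions and the strand setting are not given in the sources used here. Raw counts per gene were deposited by the authors for 9 libraries of 50.6 to 90.6 M counts. A deposited DESeq2 table gives each gene's mean signal over libraries, log2 fold change with SE, Wald score, p-value and adjusted p-value, and does not say which groups it compares. For HIV-1+LTA against PBS, DESeq2 with group and batch matched all 19990 of its log2 fold changes within 0.01. The deposited peak list has positions only.

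Counts were fitted with edgeR 4.0.16 (quasi-likelihood test, TMM, filterByExpr, Benjamini-Hochberg over 16117 genes), 1 fit of group and replicate block over 9 libraries, in R 4.3.3. The block was used because the labels give the replicate number as the batch. Deviations of same-batch libraries correlated at 0.817 to 0.983 over 9319 genes, and those of pairs differing in batch and group at -0.943 to 0.894. Each of the 10 genes had at least 1333 counts in every library. Log2 CPM used a prior count of 2. The SE of an edgeR log2 fold change was derived as its absolute value divided by the square root of the quasi-likelihood F statistic. Alternatives were DESeq2 1.42.0 (total count of at least 10), limma-voom (limma 3.58.1), no replicate block, other scalings, no filter, 6 libraries only, and leaving out each library or batch. Removing the GC trend and the DESeq2 fits with a library left out were added after seeing the data. The tests were also run on counts simulated from the edgeR fit with its own dispersions. That run cannot tell which tool's calls are right in the real libraries.

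The 10 genes and the lists were chosen with earlier results of these data known. Pathway genes are named where they passed in edgeR or DESeq2, and otherwise at most the 2 with the highest mean CPM of a list. The genes most like the 10 are the 10 highest and 5 lowest by Pearson's r. Some of the listed and nearest genes are not reported here.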

Additional observations from a re-analysis of the deposited data

How the results depend on the processing

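Under the 20 alternatives the median log2 fold change of the 10 genes ran from -0.08 to 0.01 with HIV-1 against PBS. It ran from -0.14 to -0.06 with HIV-1+LTA against HIV-1 and from -0.17 to -0.07 with HIV-1+LTA against PBS. With no replicate block these medians were -0.03, -0.09 and -0.13. Each move was below the SD of the 3 within-batch medians of its comparison. With HIV-1+LTA against PBS those within-batch medians were -0.00526, -0.23 and -0.20, so that SD is wide and a move below it shows little. Counts of calls depended on the processing. Over all genes, in the order of those comparisons, edgeR called 0 in each, DESeq2 with the replicate block 3, 252 and 236, edgeR with no filter on low counts 30, 1016 and 1045, and, with only the 6 libraries compared, edgeR called 2 in HIV-1 against PBS. Among pathway genes DESeq2 called 2 in each of the HIV-1+LTA comparisons, and edgeR with no filter called 1, 7 and 10. Leaving out a library or a batch in edgeR gave 0 to 5, 0 to 2390 and 0 to 2648 genes, and 0 to 1, 0 to 18 and 0 to 25 pathway genes. The main fit tested 16117 genes, 96 of them pathway genes. Shares called among pathway genes and all genes were not compared under the other settings of edgeR. The highest counts of the HIV-1+LTA comparisons came without HIV-1+LTA replicate 1. Without all of batch 1 they were 1567 and 1733 genes and 13 and 18 pathway genes, and without PBS replicate 1 HIV-1+LTA against PBS had 90. In DESeq2, leaving out a library or a batch gave 0 to 5 of the 10 genes called lower in HIV-1+LTA against PBS. Over all genes 0 to 1493 were called lower in those fits. Between batches 7 to 9 of the 10 were called. The batch difference of ARPC1B was -0.10 with library totals and -0.000285 to 0.104 with a library left out, negative only without HIV-1+LTA replicate 3, and that of CORO1C was -0.0328 with library totals. By Spearman's coefficient 4 of the 10 nearest genes were shared. The cause of these changes was not tested. Each of the 10 genes had 1333 counts or more in every library, and how counting error compares with the spread between batches was not tested.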
